A study of Mus musculus with 29 samples.

Results

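Macrophage marker genes, 10 of the 24770 gene symbols in the deposited table, were chosen by name, with earlier results of these data known. They are Cd68, Adgre1, Csf1r, Mrc1, Cd163, Lyve1, C1qa, C1qb, C1qc and Trem2, and their RNA was followed through brown adipose tissue (BAT, a fat tissue that makes heat) and gastrocnemius muscle (SkM, a calf muscle). All mice were wild-type C57BL/6J males. The control group ate ad libitum and was sedentary, the CR group had its food lowered stepwise to a calorie-restricted level from young adulthood on, the EX group ran on a treadmill, and the CREX group had both treatments. All groups were fasted before tissue collection, and the runners were sampled the day after their last run. RNA-seq libraries came from 3 control, 4 CR, 4 EX and 4 CREX samples of BAT and from 4 control, 3 CR, 4 EX and 3 CREX samples of SkM. The sources name samples and do not tie them to single mice, so p-values measure the spread between these samples. Whole tissue was sequenced with no sorting, so the counts come from every cell type in the piece. Fewer macrophages and less RNA per macrophage cannot be told apart.

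Macrophages live in every tissue, where they clear dead cells and debris and exchange signals with the cells around them. CSF1R is the receptor on which most of them depend for survival, ADGRE1 (F4/80) is the classical surface marker in the mouse, and CD68 is a glycoprotein of their endosomes and lysosomes. MRC1 (the mannose receptor), CD163 (the scavenger receptor for haemoglobin and haptoglobin) and LYVE1 (a hyaluronan receptor) are prominent on resident macrophages around vessels, and LYVE1 is also made by lymphatic endothelium. The genes C1qa, C1qb and C1qc encode the chains of C1q, which starts the classical complement pathway, and in most tissues macrophages are their main source. TREM2 is a lipid-sensing receptor typical of lipid-associated macrophages.

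All 10 symbols were matched in a GENCODE annotation of GRCm38. The 3 C1q genes lie side by side on the minus strand of chromosome 4, with C1qb at chr4:136880129-136886187, C1qc at chr4:136889804-136893065 and C1qa at chr4:136895917-136898803. Adgre1 (chr17:57358691-57483527, plus strand) and Trem2 (chr17:48346401-48354147, plus strand) share chromosome 17, and the others lie on chromosomes of their own, with Cd68 at chr11:69664213-69666153 (minus strand), Mrc1 at chr2:14229392-14332057 (plus strand), Cd163 at chr6:124304656-124330527 (plus strand) and Lyve1 at chr7:110850607-110863239 (minus strand).

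Promoter windows of 300 bases around the start of the gene, in RefSeq on GRCm38.p6, were used for 6 of the 10 genes. Csf1r was left out by choice, and C1qa, Adgre1 and Lyve1 had no usable window. The windows of C1qb and C1qc are shown because these neighbours had nearly the same profile over libraries, that of Mrc1 because its response to CR differed between the tissues, and that of Cd163 because its RNA went against most of the others in BAT. Capitals mark GAGGAA on either strand (TTCCTC on the other), the core bound by the macrophage factor PU.1.
C1qb, chr4:136886151-136886450, minus strand: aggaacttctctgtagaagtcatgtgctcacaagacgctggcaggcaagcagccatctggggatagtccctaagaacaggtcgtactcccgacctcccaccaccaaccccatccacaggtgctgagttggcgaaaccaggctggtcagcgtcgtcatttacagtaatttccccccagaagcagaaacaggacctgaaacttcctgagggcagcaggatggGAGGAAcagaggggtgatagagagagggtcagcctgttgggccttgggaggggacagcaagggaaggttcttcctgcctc
C1qc, chr4:136892865-136893164, minus strand: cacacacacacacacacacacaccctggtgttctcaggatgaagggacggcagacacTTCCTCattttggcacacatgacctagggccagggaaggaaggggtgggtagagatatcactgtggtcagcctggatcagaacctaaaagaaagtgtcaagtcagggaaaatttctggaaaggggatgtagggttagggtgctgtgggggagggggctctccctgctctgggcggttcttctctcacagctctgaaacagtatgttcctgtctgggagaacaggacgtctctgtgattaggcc
Mrc1, chr2:14229164-14229463, plus strand: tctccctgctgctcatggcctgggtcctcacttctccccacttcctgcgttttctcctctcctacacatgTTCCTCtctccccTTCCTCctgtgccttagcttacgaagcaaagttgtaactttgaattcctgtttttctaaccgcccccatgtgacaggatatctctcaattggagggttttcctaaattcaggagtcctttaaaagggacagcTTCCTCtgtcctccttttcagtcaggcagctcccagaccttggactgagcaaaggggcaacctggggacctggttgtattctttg
Cd163, chr6:124304401-124304700, plus strand: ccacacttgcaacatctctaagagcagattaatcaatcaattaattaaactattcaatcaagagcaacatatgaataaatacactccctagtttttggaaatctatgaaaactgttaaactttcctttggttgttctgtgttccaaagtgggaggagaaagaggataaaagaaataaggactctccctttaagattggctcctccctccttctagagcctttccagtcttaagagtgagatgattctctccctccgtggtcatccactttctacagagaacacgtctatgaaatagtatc
Of the 6 member windows, 5 hold GAGGAA and the window of Cd163 holds none, while 28.3% of 32851 promoters of the same length hold it. A match of 6 letters is a description of the sequence, not a binding site.

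The libraries were of similar depth, with totals of 21047253 to 24919384 counts in BAT and 23050928 to 23425293 counts in SkM, so that 3 counts correspond to 0.120 to 0.143 CPM (counts relative to the library total, scaled by TMM factors) and 0.128 to 0.130 CPM. RNA of skeletal muscle fibres was present in BAT libraries in uneven amounts, with 10 fibre genes summing to between 2.93 and 5667 CPM. The BAT EX replicate 3 library had the highest summed level of the 10 macrophage genes, at 98.3 CPM, and its fibroblast genes summed to 1087 CPM, while the medians of the 4 BAT groups lay between 192 and 369 CPM. That library was kept, and some of the values that change without it are given.

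Per kilobase of exon, the C1q genes were the most abundant of the 10 in both tissues, and Trem2 the least. In control BAT, C1qa stood at 12.8 ± 0.788 CPM per kilobase (SD, n = 3), C1qb at 9.43 ± 0.635, C1qc at 5.21 ± 0.478, Cd68 at 2.54 ± 0.0966 and Csf1r at 1.74 ± 0.185. Mrc1 (0.885 ± 0.0712 CPM per kilobase), Adgre1 (0.694 ± 0.0586), Cd163 (0.569 ± 0.177) and Lyve1 (0.485 ± 0.182) followed, and Trem2 stood at 0.0647 ± 0.0127. Adgre1, Cd163 and Lyve1 were neighbours in this order that lay within each other's spread. In control SkM the order was nearly the same, with C1qb (6.35 ± 2.05 CPM per kilobase, SD, n = 4) and C1qa (6.24 ± 1.95) within each other's spread, then C1qc (2.94 ± 1.10), Cd68 (1.48 ± 0.521) and Csf1r (1.02 ± 0.248). Lyve1 (0.558 ± 0.142 CPM per kilobase), Mrc1 (0.412 ± 0.0881), Cd163 (0.355 ± 0.128) and Adgre1 (0.247 ± 0.161) overlapped with at least 1 neighbour, and Trem2 stood at 0.0281 ± 0.0324.

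Between the control groups of the 2 tissues, 3 of the 10 genes passed the test and all 3 were higher in BAT. Over all genes, 58.8% of 14852 passed in either direction. A gene passed where edgeR's adjusted p was under 0.05 and the fold change above 1.5. On a scale common to both tissues, the control BAT libraries held 1.88 to 2.21 CPM of Adgre1 and the control SkM libraries 0.440 to 1.68 CPM, 2.38-fold higher in BAT (log2 fold change 1.25, SE 0.37, edgeR adjusted p = 0.0039). Mrc1 was 1.84-fold higher (log2 0.88, SE 0.27, edgeR adjusted p = 0.0045), with BAT libraries between 4.87 and 5.63 CPM and SkM libraries between 2.25 and 3.67 CPM. C1qa was 1.75-fold higher (log2 0.81, SE 0.31, edgeR adjusted p = 0.0232), with 11.4 to 12.9 CPM against 4.79 to 9.16 CPM. Lyve1 was the exception in direction, with BAT libraries between 0.751 and 1.68 CPM and SkM libraries between 1.17 and 2.19 CPM. Its difference of -0.42 on the log2 scale (SE 0.48, edgeR adjusted p = 0.441) did not pass. The count was 5 without SkM control replicate 1 or 4 and 2 without BAT control replicate 3 or SkM control replicate 2 or 3.

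In BAT, averaged over sedentary and running mice, the 10 genes had a median log2 change of -0.52 under CR, where the median of all 13922 genes was -0.00041. Adgre1 fell and Lyve1 rose past both thresholds, 2 of 10, and 11.8% of all genes passed. DESeq2 called 2 as well. By the adjusted p alone, 8 of the 10 passed in edgeR, 6 of them lower (Cd68, Adgre1, Csf1r, Mrc1, C1qa and C1qc) and 2 higher (Cd163 and Lyve1), against 33.4% of all genes, so that most of these changes were smaller than 1.5-fold. The count of 2 became 1 without CR replicate 1 or control replicate 3, 5 without CR replicate 2, 6 without CREX replicate 1 and 3 without CR replicate 3, control replicate 1, CREX replicate 3, EX replicate 2 or EX replicate 4. Without EX replicate 3 the count stayed at 2 and the median log2 change of the marker genes was -0.44.

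**Figure D1:**
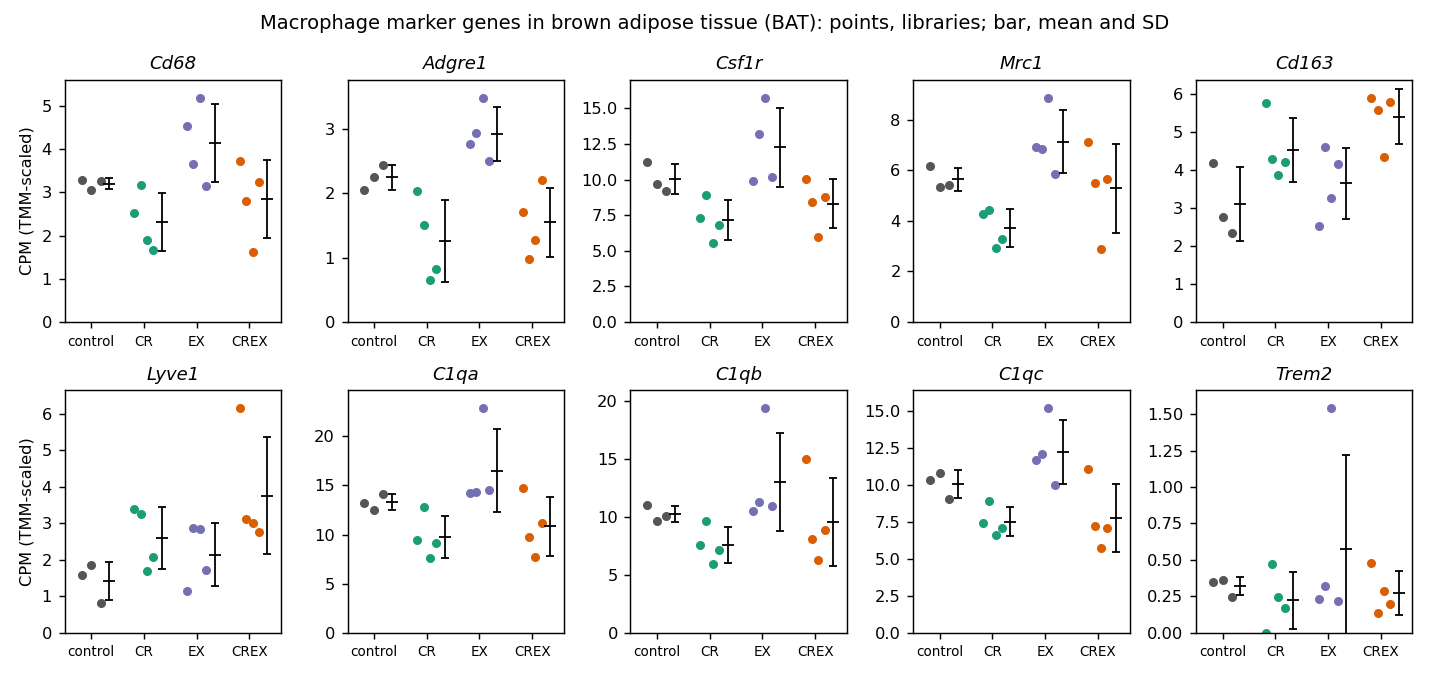
CPM (TMM-scaled) of each macrophage marker gene in every BAT library, by group; points are libraries and the black bar gives mean and SD. Adgre1 and the C1q genes sit lower in the CR and CREX groups, Lyve1 and Cd163 sit higher, and the EX replicate 3 library is the top point for C1qa (22.8 CPM) and Trem2 (1.54 CPM).

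Adgre1 stood at 2.05, 2.25 and 2.43 CPM in the control libraries and at 2.04, 1.51, 0.659 and 0.817 CPM in the CR libraries. The EX libraries held 2.77, 2.93, 3.48 and 2.50 CPM and the CREX libraries 1.72, 0.976, 1.28 and 2.21 CPM. All CR libraries lay below all controls and all CREX libraries below all EX libraries. The average CR effect was a fall by 0.88 on the log2 scale (SE 0.22, 1.84-fold, edgeR adjusted p = 0.0071), and it passed in all 21 alternative fits.

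Csf1r, on the plus strand of chromosome 18 at chr18:61100598-61132149, stood at 11.2, 9.66 and 9.20 CPM in control, 7.29, 8.94, 5.56 and 6.83 CPM in CR, 9.93, 13.2, 15.8 and 10.2 CPM in EX and 10.1, 8.43, 5.99 and 8.80 CPM in CREX libraries. The CR libraries lay below the controls, while the highest CREX library lay just above the lowest EX library. Its average fall under CR was 0.53 on the log2 scale (SE 0.13, edgeR adjusted p = 0.0076), below the fold threshold. Cd68, the lysosomal marker, moved by -0.51 (SE 0.18, edgeR adjusted p = 0.0407), with CR libraries at 1.68 to 3.17 CPM and controls at 3.06 to 3.28 CPM. Its adjusted p stayed under 0.05 in 9 of 21 alternative fits and was 0.0804 without the EX replicate 3 library.

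The 3 C1q genes fell by similar amounts, C1qa by 0.53 (SE 0.15, edgeR adjusted p = 0.0169) and C1qc by 0.54 on the log2 scale (SE 0.13, edgeR adjusted p = 0.0053), while C1qb, at -0.45 (SE 0.19, edgeR adjusted p = 0.0899), did not pass. C1qa stood at 13.2, 12.5 and 14.2 CPM in control and 9.46, 12.8, 7.62 and 9.15 CPM in CR libraries. It stood at 14.3, 14.4, 22.8 and 14.6 CPM in EX and 14.8, 9.71, 7.68 and 11.2 CPM in CREX libraries. In each pair of groups a single restricted library, CR replicate 2 and CREX replicate 1, reached the level of the unrestricted mice. Without CREX replicate 1 the change of C1qb was -0.60 with an edgeR adjusted p of 0.0115, the only 1 of 21 alternative fits where it passed. Its value lay between -0.60 and -0.31 over these fits. Without EX replicate 3 the edgeR adjusted p of C1qb was 0.166. The ratio of C1qa to C1qc counts lay between 1.15 and 1.57 in all 15 BAT libraries, and the deviations of C1qa and C1qb from their group means had a Pearson r of 0.97 over these libraries, which share their tissue piece and depth.

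Mrc1 stood at 6.16, 5.35 and 5.40 CPM in control, 4.25, 4.45, 2.93 and 3.27 CPM in CR, 6.93, 6.86, 8.87 and 5.87 CPM in EX and 7.11, 5.50, 2.89 and 5.65 CPM in CREX libraries. The CR and control libraries did not overlap, but CREX replicate 1 lay among the EX libraries. Its average fall was 0.52 on the log2 scale (SE 0.16, edgeR adjusted p = 0.0219).

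Lyve1 and Cd163 went the other way. Lyve1 stood at 1.57, 1.85 and 0.825 CPM in control and 3.39, 3.26, 1.69 and 2.06 CPM in CR libraries. It stood at 1.16, 2.88, 2.83 and 1.71 CPM in EX and 6.15, 3.10, 3.01 and 2.76 CPM in CREX libraries, so that the restricted groups were higher with a partial overlap. Its average CR effect was 0.83 on the log2 scale (SE 0.27, 1.78-fold, edgeR adjusted p = 0.0269). This call was lost without CR replicate 1 (edgeR adjusted p = 0.0549), CR replicate 2 (0.0527), control replicate 3 (0.0714) or CREX replicate 1 (0.0512). Cd163 was at 4.20, 2.78 and 2.35 CPM in control, 5.77, 4.30, 3.87 and 4.21 CPM in CR, 2.54, 4.62, 3.28 and 4.16 CPM in EX and 5.91, 5.59, 4.34 and 5.80 CPM in CREX libraries. Its average CR effect of 0.55 on the log2 scale (SE 0.15, 1.47-fold, edgeR adjusted p = 0.0123) missed the fold threshold.

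Trem2 was close to the counting floor, with 0 to 12 counts in 14 of the 15 BAT libraries and 38 counts in EX replicate 3. Its difference of -0.81 (SE 0.55) under CR had an edgeR adjusted p of 0.282, and it did not reach the filter on low counts without CR replicate 2, CREX replicate 1 or EX replicate 3.

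Within sedentary mice alone, CR against control in BAT, 9 of the 10 genes were tested and 1 passed both thresholds, against 10.7% of all genes. That gene was Mrc1, at -0.60 on the log2 scale (SE 0.17, edgeR adjusted p = 0.0294), and Csf1r (-0.49, edgeR adjusted p = 0.0458) and C1qc (-0.42, edgeR adjusted p = 0.0389) passed by the adjusted p alone. The call of Mrc1 held in 6 of 14 alternative fits and its value lay between -0.70 and -0.50. It was also lost in the fit with a muscle score as covariate (-0.56, edgeR adjusted p = 0.0373) and in 1 fit over all BAT groups (0.0891). Among single libraries it was lost without CR replicate 3 (-0.50, edgeR adjusted p = 0.0378), CR replicate 4 (0.0787) or control replicate 1 (0.101), 2 (0.068) or 3 (0.0687). Without CR replicate 2, 4 genes passed, Mrc1 with Cd68 (-0.66, edgeR adjusted p = 0.0401), Csf1r (-0.62, 0.0122) and C1qa (-0.61, 0.0052), and without CR replicate 1, 2 passed, with Adgre1 at -1.19 (0.0351). In the other direction, Lyve1 passed as higher without CR replicate 3 (1.03, edgeR adjusted p = 0.0313) and Cd163 without control replicate 1 (0.82, edgeR adjusted p = 0.0301). Within running mice, CREX against EX, none of 9 genes passed in edgeR, against 4.48% of all genes. There 6 of the 9 had an unadjusted p under 0.05, and DESeq2 called 2, Adgre1 and C1qc. In edgeR, Adgre1 was at -0.92 (SE 0.25, adjusted p = 0.0513) and C1qc at -0.66 (SE 0.20, adjusted p = 0.0808). Adgre1 passed without CREX replicate 4 (-1.14, edgeR adjusted p = 0.0396) and C1qc without CREX replicate 1 (-0.87, edgeR adjusted p = 0.0233). Without EX replicate 3 the edgeR adjusted p was 0.12 for Adgre1 and 0.176 for C1qc. The CR by EX interaction in BAT passed for none of the 10 genes in edgeR or DESeq2, with 0 at an unadjusted p under 0.05, and for 0% of all genes in edgeR.

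Relative to Csf1r, the survival receptor, the libraries of Lyve1 and Cd163 stood apart by diet. For every 100 counts of Csf1r, Lyve1 had 14.0, 19.2 and 8.97 counts in control BAT, 11.6 to 21.9 in EX, 30.2 to 46.4 in CR and 31.4 to 61.1 in CREX. Cd163 had 25.6 to 37.4 counts in control, 20.8 to 40.8 in EX, 48.2 to 79.2 in CR and 58.7 to 72.4 in CREX per 100 counts of Csf1r. For both ratios every restricted BAT library lay above every unrestricted one. Mrc1 and Cd68 showed no such split, with 47.8 to 70.6 and 24.5 to 45.6 counts per 100 of Csf1r over all groups. In SkM the ratio of Lyve1 was 20.9 to 36.7 in control, 50 to 66.7 in EX, 46.6 to 106.6 in CR and 65.7 to 115.7 in CREX, so that the diets overlapped there, while every control library lay below all others. These ratios were chosen after the values were seen and are given as a description with no test.

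**Figure D2:**
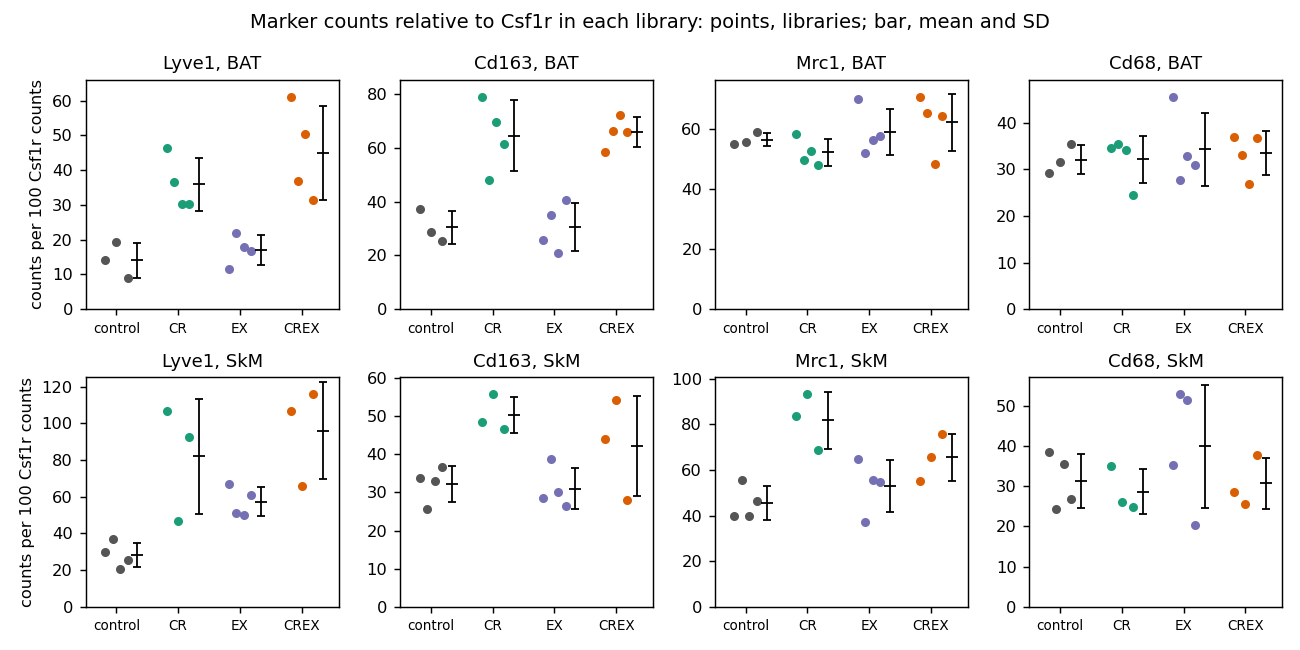
Counts of Lyve1, Cd163, Mrc1 and Cd68 per 100 counts of Csf1r in every library of BAT (top) and SkM (bottom); points are libraries and the black bar gives mean and SD. In BAT the ratios of Lyve1 and Cd163 in CR and CREX lie above those in control and EX, with no overlap, and those of Mrc1 and Cd68 overlap.

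LYVE1 also marks lymphatic vessels, and the other lymphatic genes were read beside it. Of 8 lymphatic endothelial genes, 6 were tested in BAT, none passed as higher under CR and 1, Fgl2, fell, while 5 of the 6 lay below 0. Flt4, which encodes a lymphatic growth factor receptor, was at -0.14 (SE 0.10, edgeR adjusted p = 0.312), Mmrn1 at 0.59 (SE 0.40, edgeR adjusted p = 0.277) and the chemokine gene Ccl21a at -0.77 (SE 0.33, edgeR adjusted p = 0.0848). The 8 genes summed to 13.2 to 15.4 CPM in control, 8.07 to 14.1 in CR, 13.1 to 19.7 in EX and 11.2 to 15.8 in CREX, and none of the 8 was at 0 in all libraries of a group. The part of lymphatic cells in the Lyve1 level was not tested.

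In SkM, Lyve1 was again the gene that rose under CR, and the only one of the 9 tested genes that passed, against 14.1% of all genes. No member fell past the thresholds, and by the adjusted p alone the count was also 1, against 33.5% of all genes. The median change of the 9 was -0.11 on the log2 scale, where the median of all genes was 0.0042. Trem2 did not reach the filter, with at most 6 counts in any SkM library.

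**Figure D3:**
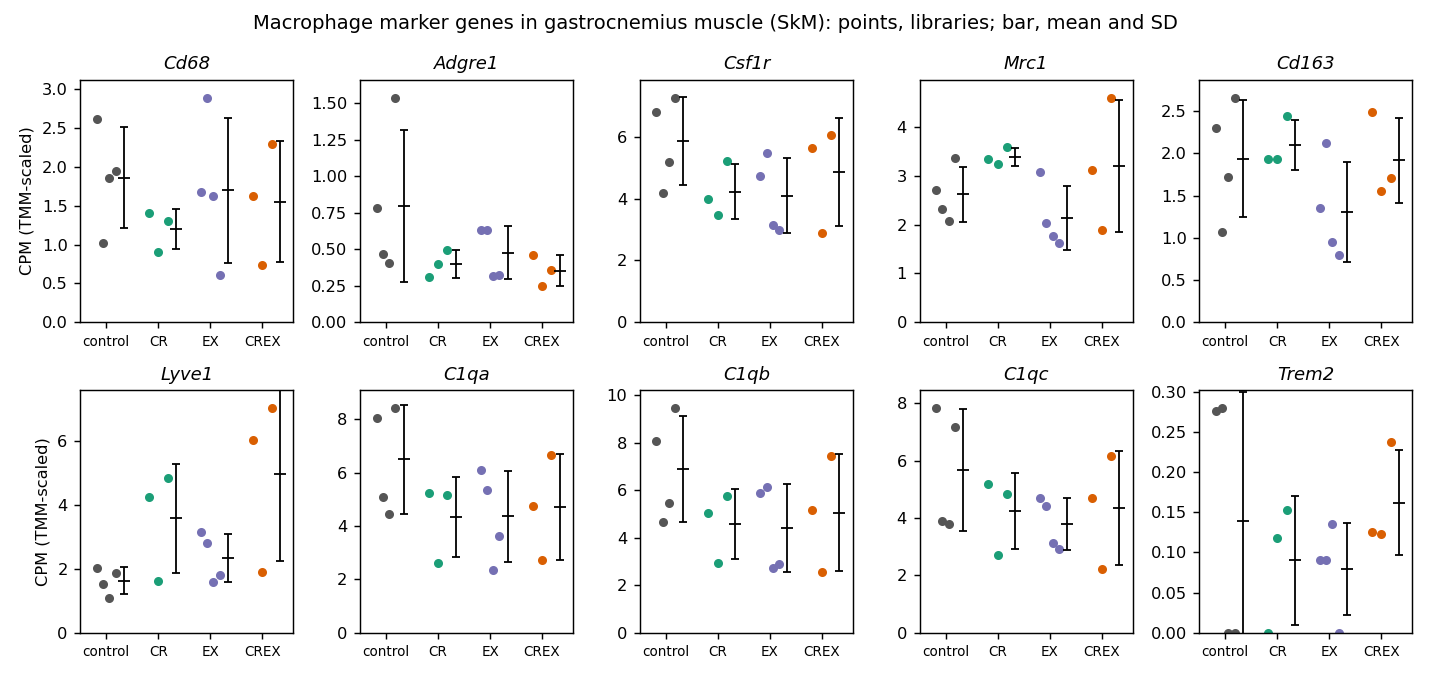
CPM (TMM-scaled) of each macrophage marker gene in every SkM library, by group; points are libraries and the black bar gives mean and SD. Lyve1 reaches 4.85 CPM in CR and 7.02 CPM in CREX libraries, while 1 library of each of these groups stays near the control level, and the C1q genes overlap between the groups.

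Lyve1 stood at 2.02, 1.54, 1.09 and 1.87 CPM in control, 4.26, 1.62 and 4.85 CPM in CR, 3.17, 2.80, 1.58 and 1.82 CPM in EX and 6.03, 1.89 and 7.02 CPM in CREX libraries. CR replicate 2 and CREX replicate 2 stood within the range of the unrestricted libraries, and the other 4 restricted libraries lay above it. The average CR effect was 1.11 on the log2 scale (SE 0.31, 2.16-fold, edgeR adjusted p = 0.0134) and passed in all 20 alternative fits. Of the 8 lymphatic genes, all 8 were tested in SkM and none passed in edgeR, with 1 (Flt4) at an unadjusted p under 0.05. Flt4 was at -0.33 (SE 0.14, edgeR adjusted p = 0.0817), Mmrn1 at 0.61 (SE 0.40, 0.25) and Prox1, the master regulator of lymphatic identity, was at 0.020 (SE 0.25, 0.961).

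Mrc1 stood at 2.71, 2.33, 2.08 and 3.37 CPM in control SkM, 3.34, 3.24 and 3.59 CPM in CR, 3.08, 2.04, 1.76 and 1.63 CPM in EX and 3.12, 1.89 and 4.60 CPM in CREX libraries. The CR libraries lay in the upper part of the control range or above it. Its average difference of 0.48 (SE 0.19, edgeR adjusted p = 0.0663) did not pass. It passed both thresholds without CREX replicate 2 (0.61, edgeR adjusted p = 0.0175) or EX replicate 1 (0.60, 0.0272). The remaining SkM genes overlapped between restricted and unrestricted libraries, with differences from -0.71 for Adgre1 (SE 0.34, edgeR adjusted p = 0.114) to 0.34 for Cd163 (SE 0.23, 0.278). Csf1r (-0.11, SE 0.20), C1qa (-0.23, SE 0.26), C1qb (-0.19, SE 0.28) and C1qc (-0.11, SE 0.25) lay within their standard errors of 0.

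In sedentary mice, CR against control in SkM, none of the 9 genes passed in edgeR, against 9.6% of all genes, with 1 at an unadjusted p under 0.05. DESeq2 called 1, which was Lyve1, at 1.14 in edgeR (SE 0.35, adjusted p = 0.057) and with an adjusted p of 0.0058 in edgeR without CR replicate 2. With a score of brown adipocyte genes as covariate, Lyve1 was at 0.24 (edgeR adjusted p = 0.697) and C1qa passed at -1.19 (edgeR adjusted p = 0.043). Fat genes in SkM varied beside it, with Adipoq at 2.13 (SE 1.07, edgeR adjusted p = 0.147) and Plin1 at 1.97 (SE 1.03, 0.157) under CR on average, both named after their values were seen, and their part in the Lyve1 level was not tested further. CREX against EX also gave none by edgeR or DESeq2, against 8.86% of all genes, with 1 unadjusted p under 0.05 by either tool. That gene was Lyve1 at 1.09 (SE 0.44, edgeR adjusted p = 0.126), and it passed in edgeR without CREX replicate 2 (1.48, adjusted p = 0.0344). The interaction of CR and EX in SkM passed for 0 of 9 genes in both tools, with 0 at an unadjusted p under 0.05, and for 0% of all genes in edgeR.

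The effect of CR differed between the tissues for Mrc1, the mannose receptor gene. Its average CR effect in BAT minus that in SkM was -0.996 on the log2 scale (SE 0.26, edgeR adjusted p = 0.0082), and it passed in all 34 alternative fits with values from -1.12 to -0.81. It was the only 1 of 10 genes to pass, against 10.5% of all genes. Lyve1, which rose in both tissues, had a difference of -0.27 (SE 0.44, edgeR adjusted p = 0.714), and Csf1r one of -0.42 (SE 0.25, edgeR adjusted p = 0.251). An adjusted p above the threshold does not show that these effects were alike.

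**Figure D4:**
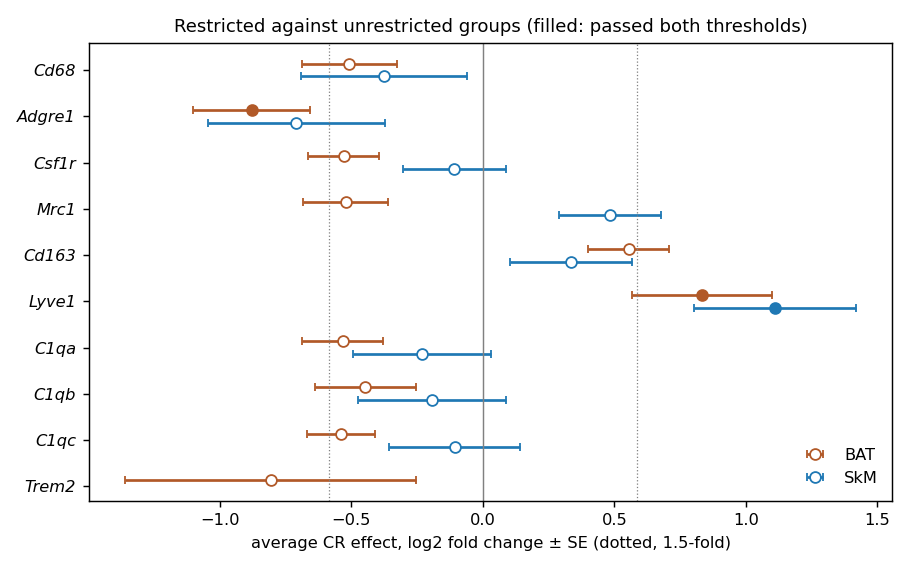
Average CR effect (log2 fold change ± SE) of each macrophage marker gene in BAT and SkM; filled points passed an adjusted p of 0.05 and a fold change of 1.5, and dotted lines mark 1.5-fold. Mrc1 lies at -0.52 in BAT and 0.48 in SkM, Lyve1 lies above 0 in both, and Trem2 has no SkM value because it was filtered.

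No marker gene changed with running past the test. In BAT the average EX effect was above 0 for all 10 genes, with a median of 0.34 on the log2 scale, and none passed in edgeR or DESeq2, against 0.00718% of all genes in edgeR. The largest of those with an unadjusted p under 0.05 (2 genes by edgeR and 2 by DESeq2) was Lyve1 at 0.57 (SE 0.27, edgeR adjusted p = 0.452), followed by Mrc1 at 0.43 (SE 0.16, edgeR adjusted p = 0.342). EX against control in BAT called 0 of 9 genes and 0% of all genes by edgeR, with 1 unadjusted p under 0.05 by edgeR and 0 by DESeq2, which called 0 members. CREX against CR in BAT called 0 of 9 by either tool, against 0.00763% of all genes, with 0 unadjusted p under 0.05 by either tool. All 9 lay above 0 in both of these comparisons. Muscle fibre genes in BAT also had all 10 average EX effects above 0, with a median of 2.67 on the log2 scale and 0 called. Their summed level had medians of 50.1 CPM in control, 369 in CR, 2310 in EX and 1548 in CREX libraries. The part of carried-over muscle in the EX effects on the marker genes was not tested. In SkM, 8 of the 9 genes lay below 0 in EX against control, with a median of -0.58, and 0 passed by edgeR or DESeq2, against 0.0775% of all genes. There 2 genes had an unadjusted p under 0.05 in edgeR and 4 in DESeq2. Csf1r was the lowest of these by p, at -0.53 (SE 0.22, edgeR adjusted p = 0.681). The average EX effect in SkM called 0 of 9 by edgeR and DESeq2, against 0.0294% of all genes, and CREX against CR called 0 of 9 by both tools, against 0% of all genes, with 0 unadjusted p under 0.05 by either tool in each. CR and EX comparisons of a tissue share their groups, so their values are not independent.

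Further gene lists were read against the share of all genes that passed in either direction under CR, 11.8% in BAT and 14.1% in SkM. Some genes, Tyrobp and Ccr2 among them, are on several lists, so the counts and sums of the lists are not independent. In SkM, 2 of 11 genes of CSF1R signalling passed in either direction in edgeR, near that share, and 1 of 18 complement genes, below it. DESeq2 called 3 of the 18 complement genes. Of 30 genes that macrophages share (pan-leukocyte, receptor and lysosomal genes), 27 were tested in BAT, and under CR 17 fell and 2 rose, with a median of -0.80 on the log2 scale against -0.00041 over all genes. Ptprc, the pan-leukocyte gene CD45, fell by 1.26 on the log2 scale (SE 0.16, edgeR adjusted p = 5.2e-05), from 2.75 ± 0.229 CPM in control (SD, n = 3) to 0.919 ± 0.315 in CR (n = 4). Mpeg1, which encodes the pore-forming perforin-2 of macrophages, fell by 1.42 (SE 0.21, edgeR adjusted p = 0.00018), Cx3cr1, the fractalkine receptor, by 2.57 (SE 0.40, 0.00025) and Aif1, a cytoskeletal protein, by 2.03 on the log2 scale (SE 0.33, 0.00036). For Ptprc, Mpeg1, Cx3cr1 and Aif1 the restricted and unrestricted libraries did not overlap. Cx3cr1 averaged 0.107 CPM in CR and 0.166 CPM in CREX, and Aif1 0.150 and 0.202 CPM, at or near the floor of 3 counts. Named after their values were seen, the 2 that rose were Mertk (0.68, SE 0.13, edgeR adjusted p = 0.0012), a receptor for dying cells, and Cd14 (0.76, SE 0.16, edgeR adjusted p = 0.0022), a co-receptor for bacterial lipopolysaccharide. The count of lower genes in BAT was 14 to 19 with a library left out and 11 with at least 10 counts in every library. In sedentary mice alone 11 fell and 1 rose, and in running mice alone 5 fell and 2 rose. In SkM, 19 of the 30 were tested, 3 fell and 1 rose, with a median of -0.30. The 3 were Ptprc (-1.03, SE 0.35, edgeR adjusted p = 0.0334), Stab1 (-0.62, SE 0.15, 0.005) and Ly86 (-1.02, SE 0.30, 0.0176), and Maf (0.84, SE 0.19, 0.0043), a transcription factor, rose. With a library left out, the count of lower genes in SkM ran from 1 to 5, and the calls of Ptprc held in 8 of 14 fits and of Stab1 in 10 of 14.

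**Figure D5:**
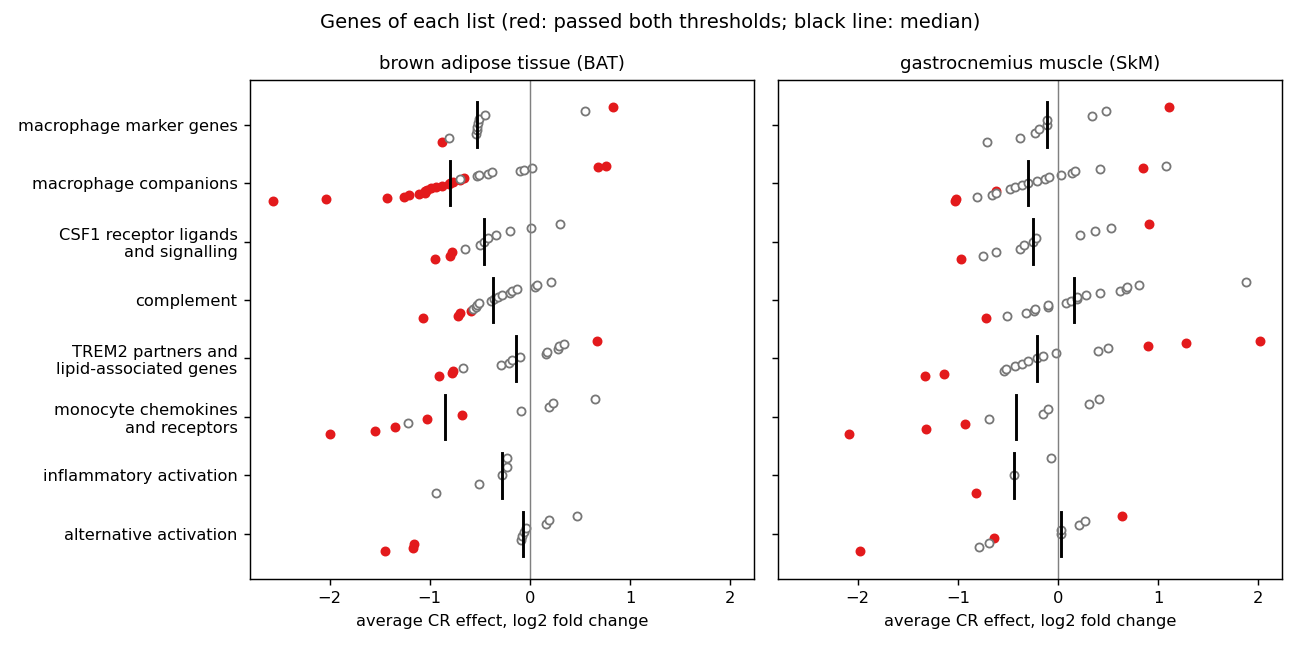
Average CR effect (log2 fold change) of every tested gene of the macrophage marker genes and of 7 further gene lists in BAT and SkM; each point is a gene, red points passed an adjusted p of 0.05 and a fold change of 1.5, and the black line is the median. In BAT the medians of the marker genes (-0.52), the companions (-0.80) and the monocyte chemokines and receptors (-0.85) lie to the left.

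Among the ligands and signalling partners of CSF1R, 3 of 11 tested genes fell in BAT and none rose, with a median of -0.46 on the log2 scale. Plcg2, which relays the receptor's signal, fell by 0.94 (SE 0.23, edgeR adjusted p = 0.0062), and the transcription factor genes Irf8 by 0.77 (SE 0.20, 0.0089) and Cebpa by 0.79 on the log2 scale (SE 0.18, 0.0061). Cebpa stood at 498 ± 63.5 CPM in control BAT, a level that brown adipocytes are known to give. In SkM, 1 of 11 fell and 1 rose, Csf2ra by 0.97 on the log2 scale (SE 0.22, edgeR adjusted p = 0.0041) and Cebpb, which went up by 0.91 (SE 0.23, edgeR adjusted p = 0.0089). Csf1, the ligand, was at -0.38 in SkM (SE 0.13, edgeR adjusted p = 0.0389), below the fold threshold.

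Among the complement genes beyond C1q, 4 of 18 tested fell in BAT and none rose. C1s1, which encodes a protease of the C1 complex, fell by 0.59 on the log2 scale (SE 0.08, edgeR adjusted p = 5.7e-05), with no overlap between restricted and unrestricted libraries, though its call held in 10 of 15 fits with a library left out. C2, the next protease in the pathway, fell by 0.72 (SE 0.13, edgeR adjusted p = 0.00068). Clu, which encodes a fluid-phase inhibitor, was at -0.57 (SE 0.14, edgeR adjusted p = 0.0074) and missed the fold threshold. In SkM, 1 of 18 tested fell, Cfp (the gene of properdin) by 0.72 on the log2 scale (SE 0.23, edgeR adjusted p = 0.0272), a call kept in 9 of 14 fits with a library left out. No complement gene passed as higher in SkM in edgeR, and 0 to 4 did when a library was left out. C3, the central component, was at 0.62 in SkM (SE 0.23, edgeR adjusted p = 0.057) and C4b at 0.81 (SE 0.31, 0.0558). DESeq2 called both C3 and C4b as higher in SkM.

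Apoe, a lipid carrier that binds TREM2, fell by 0.91 on the log2 scale in BAT (SE 0.07, edgeR adjusted p = 8.1e-07), from 623 ± 48.3 CPM in control to 334 ± 19.4 in CR, and rose by 0.89 in SkM (SE 0.14, edgeR adjusted p = 0.00031), from 40.2 ± 3.87 in control to 101 ± 18.5 CPM in CR and 55.5 ± 15.0 in CREX. The difference between the tissues was not tested for Apoe. In BAT 3 of 14 tested genes fell and 1 rose, while in SkM 2 of 15 fell and 3 rose. The gene that rose in BAT was Fabp5 (0.67, SE 0.19, edgeR adjusted p = 0.0186), named after its value was seen, and no gene of the list passed as higher without control replicate 1 or without EX replicate 2. Syk, a kinase downstream of TREM2, fell by 0.77 in BAT on the log2 scale (SE 0.16, edgeR adjusted p = 0.0021). Ctsb (0.35, SE 0.04, edgeR adjusted p = 2.4e-05) and Ctsl (0.29, SE 0.04, 6.0e-05) were higher in BAT under CR by less than 1.5-fold. For Ctsb and Ctsl the restricted and unrestricted libraries did not overlap. Lgals3, the gene of galectin-3, rose by 2.01 in SkM (SE 0.24, edgeR adjusted p = 3.5e-05) and Abca1, a cholesterol exporter, by 1.28 in SkM (SE 0.17, edgeR adjusted p = 0.00014). The 2 that fell in SkM, named after their values were seen, were Lpl (-1.14, SE 0.32, edgeR adjusted p = 0.0172) and Spp1 (-1.33, SE 0.43, 0.0287), and 0 to 4 fell when a library was left out. Many of these genes are also expressed by adipocytes or muscle fibres.

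Of the genes of monocyte recruitment, 5 of 10 tested fell in BAT under CR and 3 of 8 in SkM, and none passed as higher. In BAT 7 of the 10 lay below 0 and in SkM 6 of the 8. Cx3cl1, the fractalkine gene, fell by 1.99 in BAT on the log2 scale (SE 0.20, edgeR adjusted p = 5.6e-06) and by 2.09 in SkM (SE 0.23, edgeR adjusted p = 2.1e-05), and its libraries did not overlap in either tissue. Ccr2, the receptor that brings monocytes into tissue, fell by 1.54 in BAT (SE 0.17, edgeR adjusted p = 1.1e-05), from 1.84 ± 0.186 to 0.562 ± 0.112 CPM. In SkM it fell by 1.32 on the log2 scale (SE 0.46, edgeR adjusted p = 0.0394), from 0.674 ± 0.175 to 0.233 ± 0.235 CPM, a call kept in 3 of 14 fits with a library left out. Cxcl12 fell by 0.68 in BAT (SE 0.08, edgeR adjusted p = 2.6e-05) and by 0.93 in SkM (SE 0.17, edgeR adjusted p = 0.0012), and Cxcl14 by 1.35 in BAT on the log2 scale (SE 0.09, edgeR adjusted p = 2.2e-07).

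Of the genes of the alternatively activated state, 3 of 10 tested fell in BAT with a median of -0.070 on the log2 scale, and in SkM 2 of 9 fell and 1 rose. Mgl2, a galactose-binding lectin, fell by 1.44 in BAT on the log2 scale (SE 0.16, edgeR adjusted p = 1.1e-05) and by 0.64 in SkM (SE 0.22, edgeR adjusted p = 0.0343, kept in 7 of 14 fits with a library left out). Retnla fell by 1.15 in BAT (SE 0.33, edgeR adjusted p = 0.0174), a call lost without control replicate 1, and by 1.98 in SkM (SE 0.38, edgeR adjusted p = 0.0018). F13a1, the gene of coagulation factor XIII, was at 0.19 in BAT (SE 0.18, edgeR adjusted p = 0.456) and rose by 0.64 in SkM (SE 0.21, edgeR adjusted p = 0.027), a call kept in 8 of 14 such fits. Of 12 inflammatory genes, 5 were tested in BAT and none passed in edgeR, with 2 (Cd86 and Cxcl10, both lower) at an unadjusted p under 0.05 and 0 called by DESeq2. In SkM 3 were tested and 1, Nos2, fell by 0.82 on the log2 scale (SE 0.16, edgeR adjusted p = 0.0011).

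The markers of other cell types in BAT did not all go one way under CR. Of the B cell genes, 3 of 3 tested fell, with a summed level of 2.85 to 3.66 CPM in control and 0.615 to 0.783 CPM in CR libraries. Their sums were 2.29 to 3.48 CPM in EX and 0.639 to 0.931 CPM in CREX libraries. T cell genes summed to 1.37 to 2.15 CPM in control and 0.189 to 0.868 in CR, and the monocyte and neutrophil genes to 2.67 to 3.58 CPM in control and 1.36 to 1.43 CPM in CR. In running mice both sums overlapped between the diets. T cell genes summed to 0.693 to 1.58 CPM in EX and 0.330 to 0.754 in CREX. The monocyte and neutrophil genes summed to 3.61 to 4.82 CPM in EX and 1.36 to 4.59 CPM in CREX. Mast cell genes (4 of 7 tested) and fibroblast genes (5 of 8 tested) fell too. Fibroblast genes summed to 299 to 362 CPM in control, 164 to 199 in CR, 328 to 1087 in EX and 195 to 213 CPM in CREX. Mast cell genes summed to 22.8 to 26.7 CPM in control, 22.8 to 23.8 in CR, 16.8 to 25.8 in EX and 22.6 to 27.8 CPM in CREX. The 2 most abundant mast cell genes, Gata2 (0.034, SE 0.095, edgeR adjusted p = 0.818) and Kit (0.54, SE 0.28, 0.158), lay above 0. Of 8 blood endothelial genes 1 (Cldn5) fell past both thresholds, while all 8 lay below 0 and 4 passed by the adjusted p alone. Of 8 smooth muscle and pericyte genes, 3 fell past both thresholds (Acta2, Cspg4 and Kcnj8). All 8 of these lay below 0, with a median of -0.53 on the log2 scale, and all 8 passed by the adjusted p alone. Of 7 Schwann cell genes tested, 0 were called by edgeR or DESeq2, with 2 at an unadjusted p under 0.05 by each tool. Of 10 muscle fibre genes, 0 were called and 0 had an unadjusted p under 0.05 by either tool, while all 10 lay above 0 with a median of 0.77 on the log2 scale. The single mesothelial gene tested, Lrrn4, rose by 1.11 on the log2 scale (SE 0.18, edgeR adjusted p = 0.00042), from 2.93 CPM on average in control to 7.61 CPM in CR. Cldn5, Acta2, Kcnj8 and Lrrn4 were named after their values were seen. Of 10 brown adipocyte genes, 3 fell (Ucp1, Adrb3 and Ppara) and 1 rose (Elovl3, 0.89, SE 0.22, edgeR adjusted p = 0.0099), the genes other than Ucp1 being named after their values were seen. Ucp1, the uncoupling protein, stood at 4263 CPM on average in control and 2101 CPM in CR, and Fabp4, the most abundant of the list, at 7248 and 8077 CPM. With the skeletal muscle score as a covariate, 7 of the 10 marker genes still passed by the adjusted p alone, 5 lower and 2 higher. The part of the other cell types in the marker genes' levels was not tested.

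Genes that varied between libraries of a group as the mean of the 10 did were named by a rule, the 5 with the highest Pearson r of log2 CPM centred on group means. Over 15 BAT libraries and 11892 genes these were Ccl6 (r = 0.928), Sec24d (0.914), Mnda (0.9), Rab7b (0.897) and F13a1 (0.897). Over 14 SkM libraries and 11668 genes they were Folr2 (r = 0.927), Lyz2 (0.919), Laptm5 (0.918), Atoh8 (0.912) and Axl (0.911). Ccl6 is a macrophage chemokine, Folr2 a folate receptor of resident macrophages and Lyz2 the macrophage lysozyme gene. Each marker gene was compared with the mean of the other marker genes. Csf1r (r = 0.927 in BAT and 0.95 in SkM) and C1qb (0.943 in both) followed that mean most closely. Cd163 was least like it in BAT (0.248, and 0.68 in SkM) and Trem2 in SkM (0.0823, and 0.364 in BAT). No gene was part of the mean it was compared with. These correlations share libraries and tissue pieces, and are given as a description.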

How the data were processed

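RNA of BAT and gastrocnemius muscle was measured by paired-end RNA-seq. Per the labels, the authors aligned reads to mm10 with STAR 2.7.10a, and the deposited values are expected counts per gene from RSEM (version 1.2.28 in the submitters' notes), not normalized. The annotation and the strand setting were not given in the sources used here. The counts were rounded (6.11% of values were not whole) and tested in R 4.3.3 with edgeR 4.0.16 (TMM factors, filterByExpr, robust quasi-likelihood test), and a call needed a Benjamini-Hochberg adjusted p under 0.05 over all genes tested and a fold change above 1.5. Depth was 21047253 to 24919384 counts per BAT library and 23050928 to 23425293 per SkM library, and intervals of depth cover counting error only. DESeq2 1.42.0 and the other alternatives are given in the closing section. CPM per kilobase used the union of annotated exons. The tests were checked on simulated data. Of the 24770 symbols, 27 were date-like, and none was a member. The text names all members and the 5 genes most like them. It also names some of the 4 genes of each list with the smallest unadjusted p under CR. For a cell type it names some of the 2 most abundant genes or of the defining markers. Others are named as chosen after their values were seen. The members and gene lists were chosen with earlier results of these data known.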

Additional observations from a re-analysis of the deposited data

Results flagged for a closer look

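Of the gene and group sets of 4 samples, 4 of 30 in BAT and 0 of 20 in SkM had a highest or lowest library set apart by Dixon's test, and chance flags about 5 percent of such sets. The genes of a library are not independent, and 3 of the 4 sets share 1 library. Lyve1 stood at 6.15 CPM in CREX replicate 1, where the median of the group was 3.06 CPM. In EX replicate 3, C1qa stood at 22.8 CPM against a median of 14.5 CPM, C1qb at 19.4 CPM against 11.1 CPM and Trem2 at 1.54 CPM against 0.276 CPM.

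The average CR effect on Mrc1 differed between the tissues by a test of the difference itself, with BAT minus SkM at -0.996 on the log2 scale (SE 0.26, edgeR adjusted p = 0.0082).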

How the results depend on the processing

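Leaving out 1 library gave 1 to 6 called marker genes for the average CR effect in BAT, 2 to 5 for the control tissues, 1 for the tissue difference, 0 to 4 for CR against control and 0 to 1 for CREX against EX in BAT, 1 to 2 for the average CR effect in SkM, and 0 to 1 for each of CREX against EX and CR against control in SkM. It gave 0 throughout for the average EX effects, the interactions, EX against control and CREX against CR. With no fold minimum, 8 genes passed for the average CR effect in BAT and 3 for CR against control in BAT. For the latter, 1 fit over all groups and the muscle covariate gave 0. For CREX against EX in BAT, no filter, at least 10 counts in every library and 1 fit over all groups gave 1 each, and DESeq2 gave 2. For CR against control in SkM, DESeq2 gave 1 (Lyve1) and the brown adipocyte covariate gave 1 (C1qa), and under that covariate Lyve1 was at 0.24 and Cd163 reversed to -0.11. The cause was not tested.

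Values near 0 reversed when a library was left out: the tissue difference of Cd68 ranged from -0.31 to 0.081, and in SkM the average CR effect of Csf1r from -0.21 to 0.023, of C1qc from -0.28 to 0.049 and of Tlr4 from -0.26 to 0.047. CR against control of Cd163 ranged from -0.083 to 0.30. CREX against EX in SkM ranged from -0.53 to 0.26 for Cd68, -0.23 to 0.39 for C1qa, -0.20 to 0.52 for C1qb and -0.14 to 0.52 for C1qc.

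The mean correlation of same-numbered deviations between groups of a tissue lay between -0.364 and 0.194. Each mean rests on 3 or 4 pairs, with single values from -0.577 to 0.518, too few to show whether replicate numbers pair the samples. No such correlation was taken between BAT and SkM. With the replicate block, the tissue difference of Cd68 was 0.0083 and CREX against EX of C1qb in SkM was -0.0058, both reversed. The block left 7 marker genes past the adjusted p for the average CR effect in BAT and, for CR against control in BAT, ended the call of Mrc1 (edgeR adjusted p = 0.0967) and added Lyve1 (0.98, edgeR adjusted p = 0.0331). Under CR on average it also ended the calls of Retnla in BAT and of Ptprc, Ly86, Cfp, Ccr2, F13a1 and Mgl2 in SkM, and Fabp5 in BAT. Counts near the floor of 3 limit Trem2 and, in the restricted BAT groups, Cx3cr1 and Aif1.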
